A study of Oryctolagus cuniculus with 4 samples.

Results

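IGFBP5, insulin-like growth factor binding protein 5, was followed in 4 tissue sections of rabbit supraspinatus, the rotator cuff muscle that lies above the shoulder blade. It was the 1 feature with this name (ENSOCUG00000025513) among the 21139 genes of the count table. The gene was chosen by its counts in these same sections, with earlier results in view, so its levels in the sections are given as a description. MYH1, MYH7, MYH8 and COL1A1 were set beside it to see in which spots it was counted.

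IGFBP5 is a secreted protein that binds the insulin-like growth factors IGF1 and IGF2 and thereby limits or prolongs their contact with the IGF1 receptor. It also binds components of the extracellular matrix, which holds it close to cells, and proteases such as HTRA1 can cleave it. In skeletal muscle it is known from myoblasts, which make more of it as they differentiate, while in other tissues fibroblasts and smooth muscle cells also make it.

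The Visium 3′ assay was used, which captures polyadenylated RNA from a 10 µm section on barcoded spots of 55 µm diameter and counts molecules by their unique molecular identifiers (UMIs). The sections were healthy muscle used fresh, healthy muscle kept frozen for 6 years, and muscle collected 2 weeks or 16 weeks after tenotomy (surgical release of the tendon) and then also kept for 6 years. Every section was cut from snap-frozen tissue of the distal, posterior part of the muscle belly of a mature female rabbit (New Zealand White, aged 6 months). The label numbers place the 16-week and the stored healthy section on the left and right side of 1 animal, with 1 further animal for each remaining section. The stored healthy muscle was therefore the contralateral muscle of an animal with tenotomy. The comparison of 16 weeks with stored healthy muscle was thus made within 1 animal, where condition, side and section cannot be told apart, and in the other comparisons the animals differed as well. With 1 section per condition, no test between conditions was possible, and all intervals given are exact 95% intervals for counting error only.

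The sections held 1950 spots (fresh healthy), 2440 (stored healthy), 854 (2 weeks) and 1726 (16 weeks), and between 4079313 and 12536450 UMIs in total. The median spot had 3589.5, 5195, 4588 and 2090.0 UMIs in the same order, and mitochondrial genes took 49.3% and 49.2% of UMIs in the healthy sections but 33.8% and 34.6% after tenotomy. Genes of the fast fiber list were counted in 98.0% to 100% of spots and those of the slow fiber list in 99.1% to 100%, as the muscle label calls for. Of the 2931 barcodes, 512 occurred in all 4 sections, because the same barcodes mark the same positions on every slide.

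The level of IGFBP5 was highest 2 weeks after tenotomy. Fresh healthy muscle gave 133 UMIs (111 to 158), stored healthy muscle 264 (233 to 298), and tenotomy muscle 607 at 2 weeks (560 to 657) and 267 at 16 weeks (236 to 301). Relative to all UMIs of a section, fresh healthy muscle had 0.190 IGFBP5 UMIs per 10000 (0.159 to 0.225) and stored healthy muscle 0.211 (0.186 to 0.238). At 2 weeks this level was 1.49 (1.37 to 1.61) and at 16 weeks 0.563 (0.497 to 0.635). The levels of the healthy sections overlapped in their intervals, whereas the 16-week level lay above both and the 2-week level above all others. In these pooled counts, fewer cells that express the gene and less of its RNA per cell cannot be told apart.

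Spots with IGFBP5 followed the same order. At least 1 UMI was found in 6.05% of the fresh healthy spots (118 spots; 5.03% to 7.20%), 9.59% of the stored healthy spots (234; 8.45% to 10.8%), 46.3% of the 2-week spots (395; 42.9% to 49.7%) and 12.5% of the 16-week spots (216; 10.99% to 14.2%). A spot can hold several cells or part of one fiber, so these are not shares of cells. Spots of equal depth gave a clearer separation of the 16-week from the stored healthy section, which is the deeper of the pair. After thinning to 1000 UMIs, 1.60% of fresh healthy spots (1.06% to 2.32%) and 2.13% of stored healthy spots (1.59% to 2.80%) held IGFBP5, against 14.0% at 2 weeks (11.7% to 16.6%) and 5.82% at 16 weeks (4.64% to 7.19%). Thinning left out 266, 93, 53 and 352 shallower spots in that order.

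**Figure D1:**
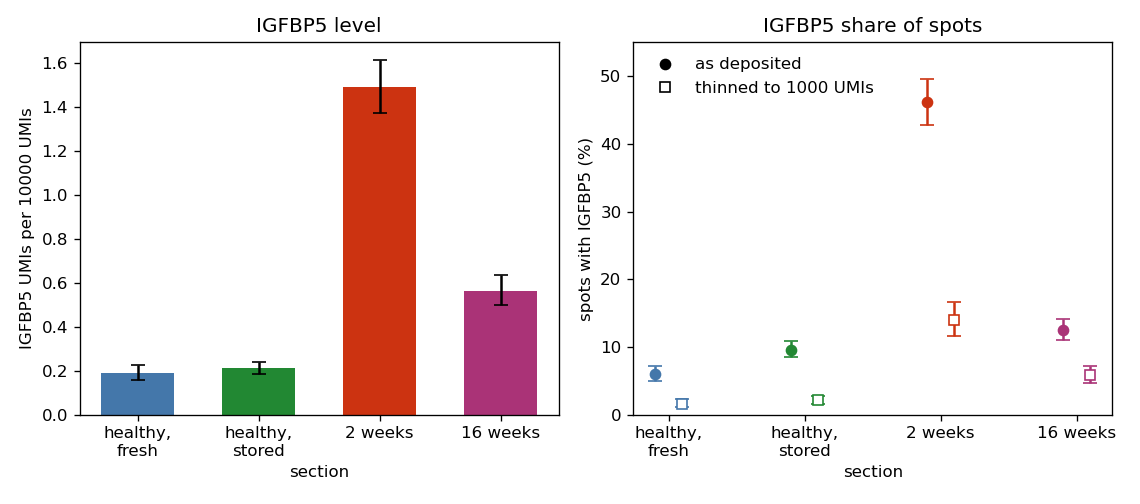
IGFBP5 in the 4 sections, as UMIs per 10000 UMIs of the section (left, bars from 0) and as the percentage of spots with at least 1 UMI (right, all spots as deposited and spots thinned to 1000 UMIs). Error bars are exact 95% intervals for counting error, and on both scales the 2-week section (1.49 per 10000; 46.3% of spots) stands above the other sections.

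The IGFBP5 level at 2 weeks was 7.07 times that of the stored healthy section (6.11 to 8.20; log2 ratio 2.82). Among the 4289 genes with at least 50 UMIs over both sections, 24% were at least 2-fold higher at 2 weeks and 1.75% at least 2-fold lower, and IGFBP5 ranked 21 from the highest ratio. At 16 weeks its level was 2.67 times that of the stored healthy section (2.25 to 3.18; log2 ratio 1.42). Here 43.9% of 4564 genes were at least 2-fold higher and 1.8% at least 2-fold lower, and IGFBP5 ranked 1104, so its 16-week ratio was not unusual among all genes. Both comparisons use the same stored healthy section.

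Part of these ratios is shared with most genes. The median gene with at least 200 UMIs stood 0.51 log2 units higher at 2 weeks and 0.77 higher at 16 weeks than in the stored healthy section, beside the lower mitochondrial share of both tenotomy sections. Relative to the median gene, IGFBP5 was 4.98 times the stored healthy level at 2 weeks and 1.57 times at 16 weeks. With mitochondrial UMIs left out of the totals, the ratios were 5.42 and 2.08, from levels of 2.25 and 0.861 against 0.415 per 10000 non-mitochondrial UMIs. The direction was the same on each of these scales, while the size of the 16-week ratio depended on the scale.

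Against the 2-week section, IGFBP5 at 16 weeks stood at 0.378 (0.326 to 0.438). It ranked 4028 of 4125 genes, in a comparison in which 4.73% of genes were at least 2-fold lower at 16 weeks, 16.2% at least 2-fold higher, and the median gene stood 0.27 log2 units higher. Relative to the median gene its ratio was 0.314. IGFBP5 was thus among the genes that lay lower at 16 than at 2 weeks while most genes lay higher. The fresh healthy level was 0.900 of the stored healthy level (0.725 to 1.11), an interval that holds 1, beside 8.86% of 4370 genes at least 2-fold higher, 8.17% at least 2-fold lower and a median shift of 0.05 log2 units. As a mean over spots, which gives shallow spots more weight, this last ratio was 0.723.

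The UMIs of IGFBP5 were spread over many spots in each section. The most UMIs of it in any spot were 3 for fresh healthy, 4 for stored healthy, 5 for 2-week and 7 for 16-week tissue. At 2 weeks 248 spots held 1 UMI, 98 held 2, 36 held 3, 10 held 4 and 3 held 5. MYH8, the perinatal myosin heavy chain that is made during fiber development and regeneration, reached 151 UMIs in a single spot of the same section. The 1% of spots richest in each gene held 6.43% of the IGFBP5 UMIs at 2 weeks, against 48.3% of those of MYH8, 18.5% of those of COL1A1 (a chain of type I collagen) and 4.21% of those of MYH1 (the fast IIx myosin heavy chain).

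Shares in the richest spots grow when a gene has few UMIs, and for IGFBP5 they were 26.3% and 20.8% in fresh and stored healthy muscle and 18.4% at 16 weeks. Evenness was therefore also read at 1000 UMIs per spot, from the variance of the counts divided by their mean, which is near 1 when molecules fall on spots independently. For IGFBP5 this ratio was 0.985 and 0.979 in fresh and stored healthy muscle, 1.03 at 2 weeks and 1.14 at 16 weeks. For MYH8 it was 2.40, 1.51, 2.14 and 2.47, and for COL1A1 1.05, 1.34, 2.25 and 1.97, in the same order. The counts of IGFBP5 after tenotomy were thus nearer to an even scatter than those of MYH8 and COL1A1. At its means of 0.152 and 0.0640 UMIs per thinned spot, mild clumping would raise this ratio only a little. The 16-week ratio of 1.14 lay furthest from 1 among the sections, on the side of clumping, and its sampling spread was not estimated. MYH8 reached its ratios after tenotomy at lower means, 0.102 and 0.0415.

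**Figure D2:**
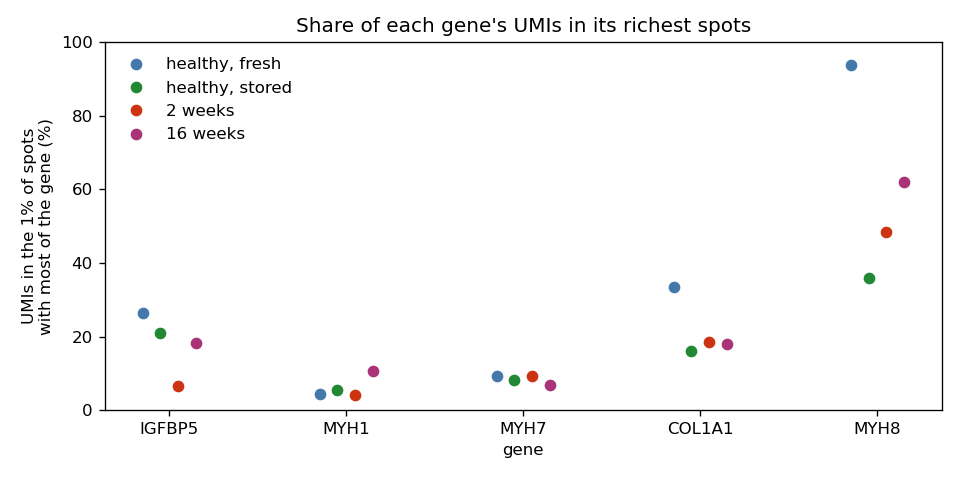
Percentage of the UMIs of each gene that lay in the 1% of spots richest in that gene, with 1 point per section. At 2 weeks the point of IGFBP5 (6.43%) lies near that of MYH1 (4.21%) and far below that of MYH8 (48.3%); points of genes with few UMIs are raised by low counts.

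Within each section, spots with at least 1000 UMIs were split into 4 classes of 25% each by the level of MYH1, which marks fast fibers, and likewise by MYH7, the slow or type I myosin heavy chain. From the lowest to the highest MYH1 class, the IGFBP5 level of the stored healthy section was 0.142, 0.148, 0.225 and 0.330 per 10000. The highest class was 2.33 times the lowest (1.64 to 3.35). At 2 weeks the levels were 1.18, 1.39, 1.75 and 1.68, and the ratio was 1.42 (1.12 to 1.81). With mitochondrial UMIs left out, the stored healthy ratio was 2.62 (1.85 to 3.76) and the 2-week ratio 1.21, with an interval that held 1 (0.956 to 1.54). On both scales IGFBP5 was therefore higher where MYH1 was high in the stored healthy section, while at 2 weeks this depended on the scale.

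The fresh healthy section gave 0.174, 0.158, 0.146 and 0.265, with a ratio of 1.53 whose interval held 1 (0.9496 to 2.48). At 16 weeks the classes were flat at 0.537, 0.601, 0.564 and 0.563, with a ratio of 1.05 (0.726 to 1.52). The difference between the sections in this relation was not tested.

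Splits by MYH7 ran the other way in the same sections. In the stored healthy section IGFBP5 was at 0.267 per 10000 in the lowest MYH7 class and 0.149 in the highest, a ratio of 0.558 (0.386 to 0.800). At 2 weeks these levels were 1.64 and 1.15, a ratio of 0.699 (0.551 to 0.884). The fresh healthy ratio was 0.765 (0.436 to 1.33) and the 16-week ratio 1.18 (0.823 to 1.72), and neither interval excluded 1. Without mitochondrial UMIs the ratios were 0.424 in the stored healthy (0.291 to 0.611) and 0.728 in the 2-week section (0.572 to 0.923). IGFBP5 was thus lower in the spots richest in MYH7 in these sections on both scales.

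The share of fast and slow myosin also differed between the sections as wholes. MYH1 stood at 82.3 UMIs per 10000 in the stored healthy section, 468 at 2 weeks, 76.1 at 16 weeks and 200.5 in the fresh healthy section. The fresh healthy section thus had 2.44 times the MYH1 level of the stored one at a similar IGFBP5 level. A pair of classes with similar MYH1 levels was chosen from a healthy and a tenotomy section after their values were seen. Their IGFBP5 intervals did not overlap. In the highest MYH1 class of the stored healthy section MYH1 was at 205 and IGFBP5 at 0.330 per 10000 (0.268 to 0.402). In the lowest MYH1 class at 2 weeks MYH1 was at 225 and IGFBP5 at 1.18 (0.989 to 1.40). For MYH7, likewise, the highest classes of the stored healthy and the 16-week section had 213 and 262 UMIs per 10000, and there IGFBP5 stood at 0.149 (0.112 to 0.194) and 0.647 (0.527 to 0.787).

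**Figure D3:**
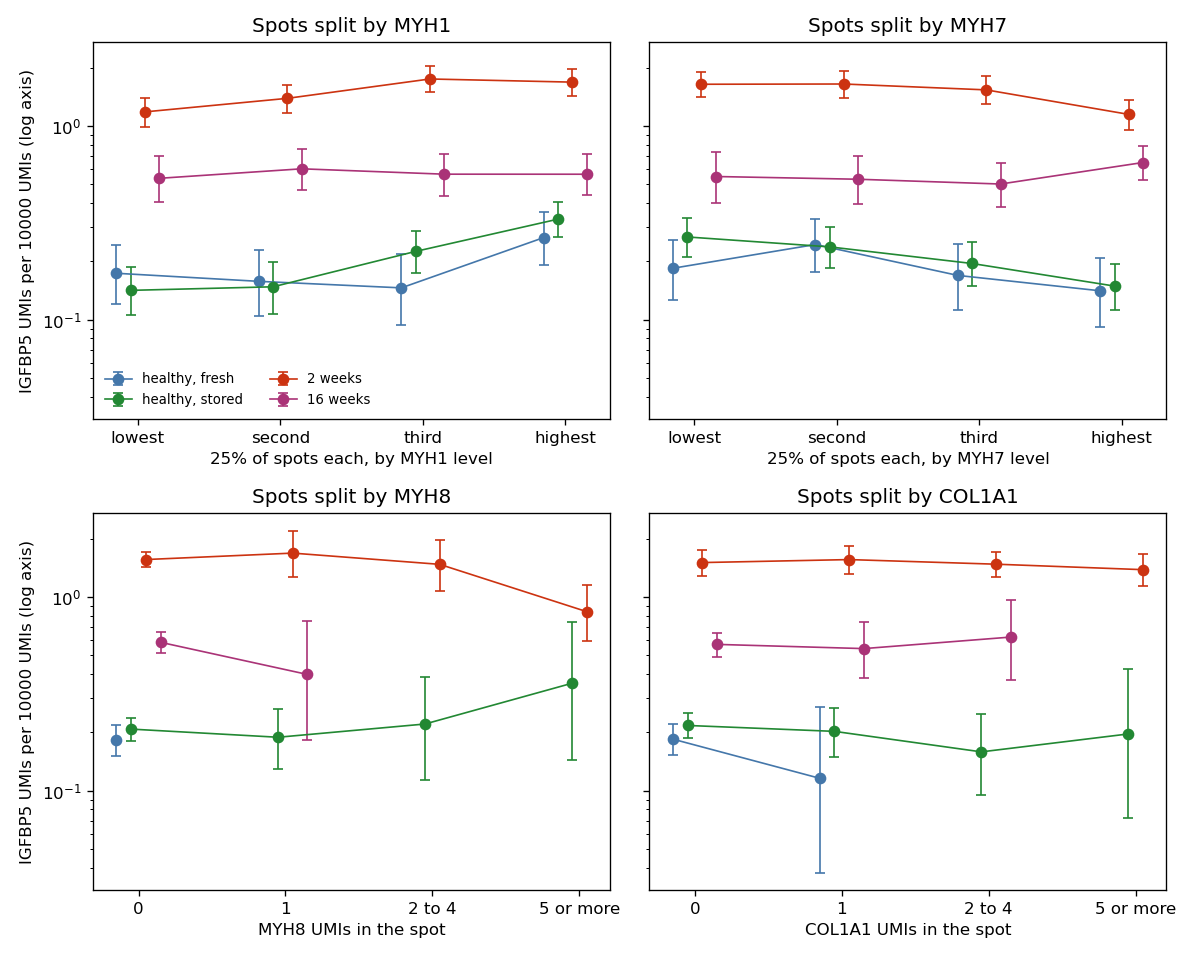
IGFBP5 level (UMIs per 10000, log axis, exact 95% intervals for counting error) in spots with at least 1000 UMIs, split into 25% classes by MYH1 and MYH7 and into classes by the UMIs of MYH8 and COL1A1; classes with under 20 spots or no IGFBP5 UMI are left out. In every class drawn the 2-week points lie above those of the healthy sections, with overlapping intervals for 5 or more UMIs of MYH8 (0.840 against 0.358).

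Pooled over spots with and without MYH8, the IGFBP5 level differed little between spots with and without COL1A1. At 2 weeks, IGFBP5 was at 1.505 per 10000 in the 246 spots with 0 UMIs of COL1A1, 1.56 in the 188 spots with 1, 1.48 in the 247 spots with 2 to 4 and 1.38 in the 120 spots with 5 or more. The level in spots with COL1A1 was 0.982 of that in spots without it (0.818 to 1.18). The same ratio was 0.972 in the fresh healthy section (0.434 to 1.91), 0.868 in the stored healthy section (0.654 to 1.14) and 0.981 at 16 weeks (0.721 to 1.32). All of these intervals hold 1, and the narrowest is that of the 2-week section.

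After tenotomy, IGFBP5 was not higher in all spots with MYH8 together than in spots without it. At 2 weeks, IGFBP5 was at 1.56 per 10000 in the 649 spots with 0 UMIs of MYH8, 1.68 in the 63 spots with 1, 1.47 in the 50 spots with 2 to 4 and 0.840 in the 39 spots with 5 or more (0.592 to 1.16). The spots richest in MYH8 were also the deepest, with a median of 9751 UMIs against 4480 in spots without it, and the part of depth in this lower level was not tested. Any MYH8 against none gave a ratio of 0.815 at 2 weeks (0.668 to 0.990), 0.612 at 16 weeks (0.312 to 1.09) and 1.01 in the stored healthy section (0.727 to 1.37). Only 24 spots of fresh healthy muscle held MYH8, with 3 IGFBP5 UMIs among them.

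Crossing both genes at 2 weeks, IGFBP5 stood at 1.35 per 10000 in 216 spots with neither gene (1.12 to 1.62) and 1.65 in 433 spots with COL1A1 alone (1.48 to 1.83). It was at 2.35 in 30 spots with MYH8 alone, from 38 UMIs (1.66 to 3.23), and at 1.08 in 122 spots with both (0.872 to 1.31). Without MYH8 the level was higher in spots with COL1A1, with overlapping intervals. With MYH8 it was lower in spots with COL1A1, with intervals apart. The ratio of 0.982 for COL1A1 at 2 weeks pooled these opposite differences, which were not tested. In each of the 4 classes the 2-week level was thus well above that of the healthy sections as wholes, including spots with no UMI of either gene. In the same classes the stored healthy level lay between 0.185 and 0.218. The fresh healthy spots with MYH8 held 1 IGFBP5 UMI without COL1A1 and 2 with it (0.631; 0.0765 to 2.28), too few to compare.

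Rank correlations across spots were weak in every section. The Spearman rho of IGFBP5 with MYH1 was 0.0897 in the stored healthy section over 2347 spots and 0.127 at 2 weeks over 801 spots, and with MYH7 at 2 weeks it was -0.104. With COL1A1 and MYH8, rho lay between -0.0312 and 0.0374 over the 4 sections. At 16 weeks rho with MYH7 was 0.125, but it was 0.0354 with counts thinned to 1000 UMIs, and the highest MYH7 class had a median of 4373 UMIs against 1814 in the lowest. Spots of 1 section share a library and neighboring tissue and differ in depth, so these values are descriptions, and in counts this sparse values near 0 are no finding.

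The ratio of the 2-week to the stored healthy section was then taken within classes of spots set by the same rule in each section. In spots without COL1A1 it was 6.93 (5.58 to 8.61), from 1.505 against 0.217 per 10000, and in spots with COL1A1 7.84 (6.12 to 10.2). It was 7.50 without MYH8 and 6.09 with it, and 6.21 in spots with neither MYH8 nor COL1A1 (4.85 to 7.94). By MYH1 it was 8.34 in the lowest classes (5.98 to 11.8) and 5.10 in the highest (3.94 to 6.62). These classes were not matched in level between the sections. In the lowest, MYH1 stood at 225 UMIs per 10000 at 2 weeks and 4.93 in stored healthy muscle, and in the highest at 709 and 205. Spots with COL1A1 had 7.13 and 2.85 UMIs of COL1A1 per 10000, and spots with MYH8 had 9.19 and 3.52 of MYH8. The higher IGFBP5 level at 2 weeks was therefore present in spots with and without COL1A1 and MYH8 counts. Spots without COL1A1 were mostly not free of collagen RNA, since COL3A1 was counted in 98.4% of all 2-week spots.

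At 16 weeks the ratio to the stored healthy section was 2.62 in spots without COL1A1 (2.13 to 3.22) and 2.96 in spots with it (2.07 to 4.23). It depended more on the fiber genes. By MYH1 it was 3.79 in the lowest classes (2.54 to 5.67) and 1.71 in the highest (1.23 to 2.34), and by MYH7 2.05 in the lowest (1.39 to 3.001) and 4.34 in the highest (3.09 to 6.16). In spots with MYH8 it was 1.71, from 12 UMIs at 16 weeks, with an interval that held 1 (0.829 to 3.24). In the lowest and highest MYH1 classes IGFBP5 was at 0.537 and 0.563 per 10000 at 16 weeks, against 0.142 and 0.330 in stored healthy muscle. For MYH7 the levels were 0.548 and 0.647 against 0.267 and 0.149. The spread of these ratios thus lay mostly in the levels of the stored healthy section. The classes are 25% classes of each section, so they differ in their MYH1 and MYH7 levels between sections.

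**Figure D4:**
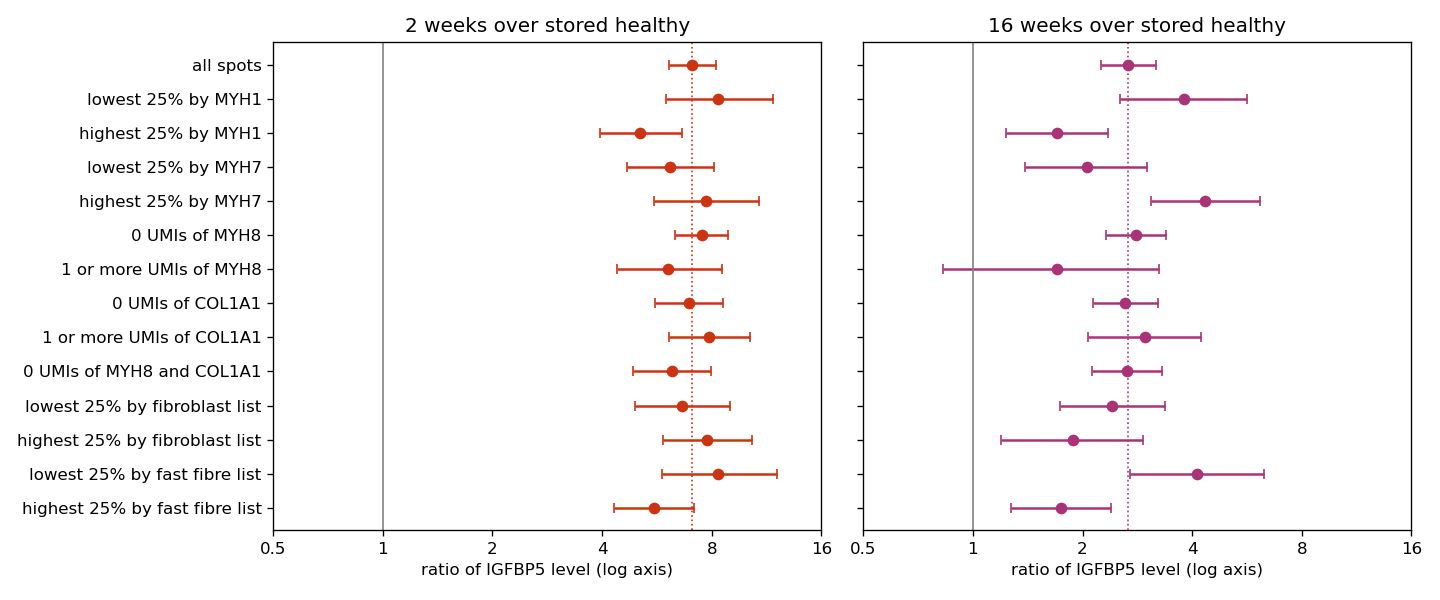
Ratio of the IGFBP5 level at 2 weeks (left) and 16 weeks (right) to the stored healthy section (log axis, exact 95% intervals for counting error) in all spots, marked by the dotted line, and within classes of spots with at least 1000 UMIs. At 2 weeks every class lies between 5.10 and 8.34, and at 16 weeks between 1.71 and 4.34.

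Lists of marker genes gave a similar picture. In the stored healthy section the class of spots highest in the fast fiber list (4 of 10 listed genes with a feature) had 2.68 times the IGFBP5 level of the lowest class (1.86 to 3.91), and the ratio was 1.89 in the fresh healthy section (1.16 to 3.13), 1.78 at 2 weeks (1.41 to 2.27) and 1.14 at 16 weeks (0.785 to 1.66). For the slow fiber list (8 of 9 genes) the ratios were 0.668, 0.539, 0.729 and 1.03 from the fresh healthy to the 16-week section, with intervals below 1 in the stored healthy (0.372 to 0.775) and 2-week section (0.574 to 0.923). For the regenerating fiber list (6 of 11 genes) they were 0.893, 0.585, 0.729 and 0.870 in the same order. IGFBP5 was thus higher in spots rich in fast fiber genes in 3 sections. MYH1 is itself in the fast fiber list. It gave 140694 of the 196655 UMIs of that list in fresh healthy, 103154 of 158729 in stored healthy and 190989 of 282727 in 2-week muscle. The fast fiber list and the split by MYH1 are thus not separate measures. In the slow fiber list TNNI1 gave 49542 of 148584 UMIs in fresh healthy and 37024 of 128998 in 2-week muscle. TNNI1 was higher in these sections (70.6 and 90.8 per 10000) than in stored healthy (37.8) and 16-week muscle (47.7). MYH7 ran the other way, at 33.7 and 77.4 against 103 and 160, so the slow fiber list is mixed. In no section was IGFBP5 higher in the highest than in the lowest class of the regenerating fiber list. A single gene, ACTC1, gave 6793 of the 8083 UMIs of this list in the stored healthy section and 9054 of 10363 at 16 weeks. There the list mostly describes ACTC1. In the fresh healthy section only 11.4% of spots held a UMI of the list, so its highest class held many spots with none.

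For lists of other cell types, most intervals held 1. The fibroblast list (7 of 12 genes) gave 1.40, 0.998, 1.17 and 0.783, and each interval held 1. At 2 weeks the ratio was 1.36 for the smooth muscle and pericyte list (4 of 8 genes; 1.08 to 1.73) and 1.35 for the endothelial list (6 of 8 genes; 1.07 to 1.71), both lists of vessel wall cells. In the other sections these ratios lay between 0.867 and 1.21, with intervals that held 1. At 2 weeks ACTA2 gave 1025 of the 1373 UMIs of the smooth muscle and pericyte list. VWF gave 1073 of the 1173 UMIs of the endothelial list there, so these ratios mostly describe single genes. The adipocyte list (4 of 8 genes, with LEP at 0) gave 0.469 in the stored healthy (0.316 to 0.687) and 0.631 in the 16-week section (0.401 to 0.967), but 1.11 at 2 weeks (0.883 to 1.40) and 0.691 in the fresh healthy section (0.387 to 1.22), where the intervals held 1. LPL gave 2415 of the 2432 UMIs of this list in fresh and 3695 of 3719 in stored healthy muscle. It gave 2525 of 2554 at 2 weeks and 5954 of 6340 at 16 weeks. The adipocyte ratios thus mostly describe LPL. For the macrophage (9 of 10 genes) and satellite cell lists (3 of 4 genes), every interval held 1. PAX7 and CALCR of the satellite cell list were at 0 in the fresh healthy and 16-week sections. From the fresh healthy to the 16-week section, only 0.564%, 1.52%, 1.87% and 0.463% of spots held a UMI of this list. Its highest classes were thus mostly spots with none, so its ratios cannot show whether IGFBP5 goes with satellite cells. In the fresh healthy section 10.7% of spots held a UMI of the macrophage list, so its highest class there also held many spots with none. Without mitochondrial UMIs the 16-week ratios were 0.606 for the fibroblast (0.396 to 0.908) and 0.597 for the macrophage list (0.396 to 0.890), with intervals below 1.

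Several of these lists also differed between the sections. Summed over the fibroblast list, the level was 13.3 and 40.3 UMIs per 10000 in fresh and stored healthy muscle, 131 at 2 weeks and 78.3 at 16 weeks, and over the fast fiber list 280, 127, 693 and 99.4. The smooth muscle and pericyte list stood at 1.80, 1.51, 3.37 and 4.21, and the endothelial list at 1.35, 2.26, 2.88 and 2.98. The order of the fibroblast list was the same as that of IGFBP5, while the fast list was lowest at 16 weeks. Within the lowest class of spots by the fibroblast list the 2-week to stored healthy ratio of IGFBP5 was 6.62 (4.93 to 8.98), and in the highest class 7.75 (5.86 to 10.3).

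Depth and mitochondrial share moved with IGFBP5 within some of the sections. The class of spots highest in mitochondrial share had 0.424 of the IGFBP5 level of the lowest class in the fresh healthy section (0.251 to 0.700), 0.668 in the stored healthy section (0.470 to 0.942), 0.553 at 2 weeks (0.436 to 0.698) and 1.18 at 16 weeks (0.788 to 1.81). At 2 weeks, with mitochondrial UMIs left out of the denominator, the value was 0.729 (0.575 to 0.921), while in stored healthy muscle it was 0.878, with an interval that held 1 (0.617 to 1.24), and at 16 weeks 1.78 (1.19 to 2.73). By total UMIs, the deepest class stood at 0.518 of the shallowest in the stored healthy (0.370 to 0.726) and 0.669 in the 2-week section (0.523 to 0.859), but at 1.15 in the fresh healthy (0.584 to 2.48) and 1.48 in the 16-week section (0.913 to 2.54). Without mitochondrial UMIs the 16-week ratio was 1.82 (1.12 to 3.12), so the deepest spots were higher in IGFBP5 there and lower in the stored healthy and 2-week sections. The part of depth and mitochondrial share in the splits by gene was not tested. On the scale without mitochondrial genes the highest against the lowest class of the fast fiber list gave 2.74 in the stored healthy section (1.92 to 3.96) and 1.45 at 2 weeks (1.14 to 1.84).

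Clusters of spots were rebuilt in each section without IGFBP5 and are called by their leading genes. At 2 weeks the 719 spots led by CAPN3, SUCLG2 and LAMTOR5 had 1.46 IGFBP5 UMIs per 10000 (1.34 to 1.58). The 67 spots led by MYH11 and ACTA2, both genes of smooth muscle contraction, and GSTA5 had 2.07 (1.56 to 2.69). The first of these clusters stood at 0.703 of the level of the second, with an interval below 1 (0.532 to 0.946). With mitochondrial UMIs left out, which took 34.7% and 22.4% of UMIs in these clusters, the levels were 2.23 and 2.67, a ratio of 0.835 whose interval held 1 (0.632 to 1.12). The cluster led by MYH11 also had 19.9 UMIs of COL1A1 per 10000 against 3.83 in the other. The remaining clusters were 66 spots led by STRIT1, MYH7 and TNNC1 (1.35; 0.497 to 2.95) and called low-UMI, with a median under 33.3% of that of the section, and 2 single spots led by collagen genes, COL1A2 with COL3A1 and SFRP2 with COL1A1 and COL1A2. These single spots held 7534 and 9616 UMIs and no IGFBP5, which allows a level of up to 4.90 and 3.84 per 10000.

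At 16 weeks IGFBP5 was at 0.607 per 10000 in 749 spots led by STRIT1, KLHL41 and ANKRD2, all genes of muscle fibers (0.525 to 0.698). It was at 0.541 in 426 spots led by PCK2, FABP7 and PPARG, the last a regulator of fat cell formation (0.390 to 0.732), and at 0.376 in 284 spots led by COL11A1, PDGFRL and KERA, matrix genes among them (0.236 to 0.569). The first cluster stood at 1.61 times the level of the third (1.04 to 2.63), or 2.24 times without mitochondrial UMIs (1.44 to 3.65), where the levels were 1.001, 0.753 and 0.448. The second cluster stood at 1.44 times the level of the third (0.840 to 2.53), or 1.68 times without mitochondrial UMIs (0.981 to 2.96), and both intervals held 1. Spots led by matrix genes thus had a lower level than the first cluster, but were not set apart from the second. COL1A1 was at 7.08 UMIs per 10000 in the third cluster against 0.396 in the first. In the 266 low-UMI spots led by MYOC, GLNB2 and COL1A2 IGFBP5 was at 0.462 (0.186 to 0.952), and 1 spot stood alone.

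In the stored healthy section IGFBP5 was at 0.216 per 10000 in 1902 spots led by ACTN3, MYH1 and CHRNA9 (0.187 to 0.247) and at 0.184 in 439 spots led by CD74, HLA-DRA and ANXA8 (0.137 to 0.241). These intervals overlap, and the ratio of 1.18 (0.864 to 1.63) was 1.40 without mitochondrial UMIs (1.03 to 1.94) and 1.78 between the highest and lowest larger cluster when genes were not scaled. The second of these clusters had 14.8 UMIs of MYH1 per 10000 against 102 in the first. A further 98 low-UMI spots led by COL1A2, DCN and MGP held 4 UMIs of IGFBP5, and the single spot led by MMP12, GPNMB and LGALS3 held none. In the fresh healthy section 1677 spots led by PNO1, RPL26L1 and SNX1 were at 0.187 (0.157 to 0.223), and 273 low-UMI spots led by GLNB2, XIRP2 and STRIT1 held 4 UMIs.

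The genes most like IGFBP5 across spots were named by the Pearson correlation of log2(1 + UMIs per 10000) over spots with at least 1000 UMIs, among genes found in at least 10% of these spots. At 2 weeks (801 spots, 1969 genes) they were OCIAD1 (r = 0.153), ASB11, a substrate adaptor of ubiquitin ligases (0.152), ATP2A1, the calcium pump of the sarcoplasmic reticulum of fast fibers (0.148), TRDN, the triadin of the calcium release complex (0.139), and ENSOCUG00000029295 (0.139). MYH1 ranked 8 there, COL1A1 ranked 269, MYH8 ranked 1579 and MYH7 ranked 1956. In the stored healthy section (2347 spots, 1572 genes) MYH1 ranked first with r = 0.0933, followed by ENSOCUG00000021647 (0.0924), the glycolytic enzyme ALDOA (0.0916), the transcription factor HLF (0.0882) and ATP2A1 (0.0853). With genes found in at least 5% of the stored healthy spots, MYH4 came first (r = 0.110). All of these correlations were small.

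At 16 weeks (1374 spots, 1733 genes) the leading genes were STYXL2 (r = 0.140), the β-tropomyosin gene Tpm2 (0.127), the thin filament gene NEB (0.125), ENSOCUG00000006059 (0.123) and ENSOCUG00000016777 (0.122). MYH7 ranked 37, MYH1 ranked 460 and COL1A1 ranked 1381. TRDN (r = 0.139 and 0.121) and RYR1 (0.120 and 0.113), the calcium release channel of the sarcoplasmic reticulum, were the 2 genes among the 25 highest in both tenotomy sections. This was not particular to tenotomy, since in the stored healthy section RYR1 ranked 6 (r = 0.0817) and TRDN ranked 20 (0.0644). In the fresh healthy section they ranked 422 and 758. In the fresh healthy section (1684 spots, 1400 genes) ENSOCUG00000022291 (0.120), the corepressor NCOR1 (0.0887), ENSOCUG00000003793 (0.0885), ALDOA (0.0870) and the muscle chloride channel CLCN1 (0.0847) came first. MYH8 and COL1A1 were found in too few fresh healthy spots to be ranked, and MYH8 in too few 16-week spots. These spots share depth and tissue, and the values describe single sections.

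IGFBP5 was then set beside the IGF axis, a list of 30 other ligands, receptors, binding proteins, proteases and signaling genes, of which 12 had a feature. In the comparison of 2 weeks with the stored healthy section 5 of them had at least 50 UMIs, of which 4 were at least 2-fold higher and 0 lower, beside 24% and 1.75% of all genes, with a median ratio of 2.97 against 1.503 over all genes. At 16 weeks 6 were compared and 6 were at least 2-fold higher, with a median of 5.05 against 1.85, and the 43.9% of all genes that were as much higher is the background to this. Between the healthy sections 0 of 5 were at least 2-fold higher and 1 at least 2-fold lower in the fresh one. This stood beside 8.86% and 8.17% of all genes, with a median of 0.632 against 1.06.

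Among ligands, IGF1, the growth factor that IGFBP5 binds, had 48 and 202 UMIs in fresh and stored healthy muscle, 351 at 2 weeks and 581 at 16 weeks. Its level was 5.34 times the stored healthy level at 2 weeks (4.48 to 6.38) and 7.60 times at 16 weeks (6.47 to 8.97). Both IGF1 and IGFBP5 were thus higher after tenotomy, but IGF1 was highest at 16 weeks and IGFBP5 at 2 weeks. Between the tenotomy sections IGF1 stood at 1.42 (1.24 to 1.63) and IGFBP5 at 0.378.

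Like IGFBP5, IGFBP4 was higher at 2 weeks than in stored healthy muscle, with an interval that overlapped that of IGFBP5 (6.11 to 8.20). Unlike IGFBP5, both IGFBP4 and IGFBP6 had their highest level at 16 weeks. IGFBP4 had 23, 72, 115 and 187 UMIs from the fresh healthy to the 16-week section, and stood at 4.91 times the stored healthy level at 2 weeks (3.62 to 6.68) and 6.86 times at 16 weeks (5.20 to 9.14). IGFBP6, a binding protein that prefers IGF2, had 991, 2800, 937 and 2706 UMIs. Its level at 2 weeks was 1.03 times the stored healthy level (0.954 to 1.11) and at 16 weeks 2.55 times (2.42 to 2.69). Without mitochondrial UMIs the 2-week value of IGFBP6 was 0.789, so its direction at 2 weeks depends on the scale.

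HTRA1, a secreted protease that cleaves IGF binding proteins, had 77, 85, 76 and 152 UMIs and stood at 2.75 times the stored healthy level at 2 weeks (1.99 to 3.79) and 4.73 times at 16 weeks (3.60 to 6.24). PIK3R1, the regulatory subunit of the PI3 kinase below the receptor, stood at 2.97 (2.33 to 3.77) and 5.01 (4.08 to 6.17), and FOXO3, a transcription factor that this signaling restrains, at 5.09 at 16 weeks from 52 against 27 UMIs (3.14 to 8.43). All 6 of these genes had a higher level at 16 than at 2 weeks, with ratios from 1.40 for IGFBP4 to 2.63 for FOXO3. Over all 4125 genes the median ratio in this comparison was 1.24, so most genes lay higher at 16 weeks. At least 2-fold higher were 2 of the 6, beside 16.2% of all genes. IGFBP5, which was chosen by its counts in these sections, alone among the 7 genes of the axis that were compared lay lower at 16 weeks. Fresh healthy muscle had 1.62 times the stored healthy level of HTRA1 (1.17 to 2.23) and 1.501 times that of PIK3R1 (1.17 to 1.92). There they stood at 0.110 and 0.172 per 10000, against 0.186 and 0.341 at 2 weeks. For IGF1, IGFBP4 and IGFBP6 the fresh healthy level was lower, at 0.424, 0.571 and 0.632 of the stored one. The 2-week count of 4 genes at least 2-fold higher was not taken against the fresh healthy section.

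**Figure D5:**
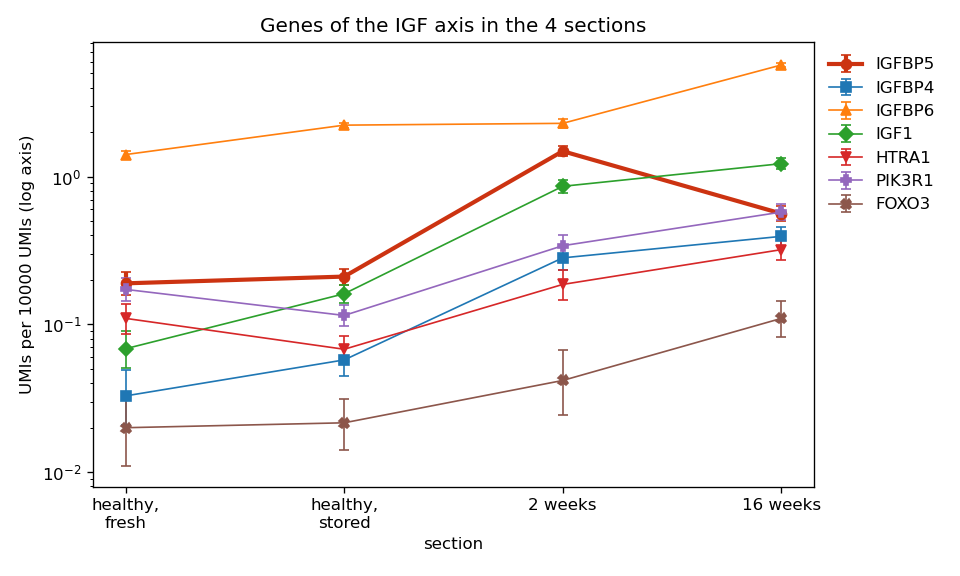
Levels of IGFBP5 and 6 other genes of the IGF axis in the 4 sections (UMIs per 10000 UMIs, log axis, exact 95% intervals for counting error; lines only join the points of a gene). IGFBP5 is highest at 2 weeks (1.49) and the other genes at 16 weeks, such as IGF1 (1.22).

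Genes of proteins that bind IGFBP5 were also listed. FHL2, an adaptor protein, stood at 1.91 times the stored healthy level at 2 weeks (1.58 to 2.29) and 1.94 times at 16 weeks (1.63 to 2.32). The matrix protein gene FN1 stood at 2.20 (2.11 to 2.30) and 2.02 (1.93 to 2.11). SPP1, osteopontin, was lower at 2 weeks with 20 against 120 UMIs (0.512; 0.302 to 0.827) and higher at 16 weeks with 96 (2.11; 1.60 to 2.79), and THBS1 had 5 UMIs at 2 weeks, 27 at 16 weeks and 14 in the stored healthy section. The 2-week ratios of FHL2, FN1 and SPP1 were not near the 7.07 of IGFBP5. IGFBP5 was chosen by its counts in these sections, so this difference is no separate finding. The healthy sections differed as well. In the fresh one SPP1 stood at 0.0893 of the stored healthy level (0.0321 to 0.200), FN1 at 0.215 and FHL2 at 0.607. SPP1 was at 0.00855 per 10000 in the fresh healthy section, from 6 UMIs, and at 0.0490 at 2 weeks. Its direction at 2 weeks thus depends on the healthy section used. Over all genes compared, the median ratio to the stored healthy section was 1.503 at 2 weeks and 1.85 at 16 weeks. The 16-week ratios of FHL2, FN1 and SPP1 thus lay little above that of the median gene. Without mitochondrial UMIs they were 1.51, 1.57 and 1.64. At 2 weeks FHL2 and FN1 lay above the median gene and SPP1 below it. THBS1 had too few UMIs for this comparison.

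IGFBP5 was not found more in spots with IGF1. At 2 weeks it stood at 1.46 per 10000 in the 236 spots with IGF1 and 1.498 in the 565 without it, a ratio of 0.974 (0.818 to 1.16). The ratio was 1.12 in the fresh healthy section (0.300 to 2.94), 1.16 in the stored healthy section (0.737 to 1.76) and 0.762 at 16 weeks (0.561 to 1.02). For IGFBP4 it was 1.19 at 2 weeks (0.939 to 1.49) and 0.669 at 16 weeks (0.406 to 1.05), and for IGFBP6 0.945 and 0.921. In the fresh healthy section the ratio for IGFBP6 was 1.66, the highest of the sections for this gene, with an interval above 1 (1.15 to 2.39).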

How the data were processed

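The authors aligned the reads of 4 Visium sections with Space Ranger 1.2.0 to OryCun2.0 with Ensembl annotation, and deposited counts of UMIs per gene and spot under tissue without normalization. All spots and 21139 genes were used, and 37 mitochondrial genes were recognized by neighboring identifiers. The 4 lists of spot positions carry no barcodes and were not used. No doublet caller was run, since spots are regions.

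Levels are UMIs per 10000 UMIs of the section or class. Intervals are exact at 95% (Poisson for levels, Clopper-Pearson for shares, conditional for ratios). With 1 section per condition no test was run. Spots were thinned without replacement to 1000 UMIs, and shallower ones left out. Splits and correlations used spots with at least 1000 UMIs, in classes of 25% of spots. Clusters were rebuilt by k-means on 10 principal components without IGFBP5, with the numbers of clusters set to 2, 4, 5 and 5. The text of the study does not state its numbers of clusters, so differences from the study's clusters can come from this. Leading genes have a symbol and at least 100 UMIs in the cluster, a rule set after seeing the data. A low-UMI cluster has a median under 33.3% of that of its section.

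IGFBP5, the gene lists and the tests were chosen with earlier results of these data known. The genes named were IGFBP5, MYH1, MYH7, MYH8, COL1A1, listed IGF axis and partner genes with at least 50 UMIs over the sections, the 5 genes most like IGFBP5 per section, those among the 25 most alike in both tenotomy sections, and the 3 leading genes of each cluster. Some members of the marker lists (ACTC1, CALCR, LEP, LPL, MYH4, PAX7, TNNI1 and VWF) were also named. Names came from the count table, and a list gene under an identifier only was not found by name. The result of 1 marker list is not reported here. Alternatives covered the denominator, scaling, depth, spot minimum, splits, correlation, fold and clustering. The work was done in Python 3.11.15 with scikit-learn 1.9.0, scipy 1.17.1, numpy 2.4.6, pandas 2.3.3 and matplotlib 3.10.9, and its steps were tested on simulated data.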

Additional observations from a re-analysis of the deposited data

How the results depend on the processing

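Of the values recomputed under an alternative, 245 stayed within their counting interval (for counts of genes, within 1.5 times), and 67 did not. Of 258 recomputed ratios and correlations, 25 fell on the other side of 1 or 0, and in each of these the interval of the reported value held 1 or 0. They include the fresh to stored healthy ratio (0.900) in some classes of spots, and several splits by COL1A1 and by marker lists. No paired analysis was possible because each condition had 1 section. With 133 to 607 UMIs of IGFBP5 per section, splits into small classes are imprecise, and spots with MYH8 in the fresh healthy section were too few for a stricter split. The 2-week to stored healthy ratio of 7.07 was 5.42 without mitochondrial UMIs, 4.98 with the median gene set to 1 and 8.37 without the 1% of spots richest in IGFBP5. The 16-week ratio of 2.67 was 2.08 and 1.57 on the first 2 scales and 1.93 as a mean of spot levels. As a mean of spot levels the fresh to stored healthy ratio was 0.723 and the 16-week to 2-week ratio 0.306, the latter 0.314 with the median gene set to 1.

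Shares of spots with IGFBP5 follow depth and threshold by construction, and are given here from the fresh healthy, stored healthy and 2-week to the 16-week section. With at least 2 UMIs they were 0.718%, 0.984%, 17.2% and 2.20%, and with at least 3 UMIs 0.0513%, 0.205%, 5.74% and 0.348%. Thinned to 500 UMIs they were 1.63%, 1.64%, 7.05% and 2.51%, to 1000 UMIs 1.60%, 2.13%, 14.0% and 5.82%, and to 2000 UMIs 3.27%, 4.50%, 27.0% and 10.1%. Another seed at 1000 UMIs gave 1.54%, 2.30%, 13.6% and 4.37%, and the expectation over all draws 1.70%, 2.22%, 14.2% and 5.12%.

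Splitting the stored healthy spots by thinned MYH8 counts gave a ratio of 1.53, and rho with MYH7 at 16 weeks was 0.0354 after thinning. Comparing the upper with the lower 50% of spots gave ratios nearer 1 for the fast fiber list (1.67 in the stored healthy section, 1.37 at 2 weeks) and the adipocyte list (0.704 in the stored healthy section). For mitochondrial share, a split added after seeing the data, this gave 0.749 in the fresh healthy section, and leaving mitochondrial UMIs out of the denominator gave 0.729 at 2 weeks. With Spearman correlation 1 gene was among the 25 most like IGFBP5 in both tenotomy sections. With at least 200 UMIs 2 other IGF axis genes passed the fold at 2 weeks. In the fresh healthy section a 1.5-fold limit gave 2 higher and 3 lower, and a minimum of 20 UMIs gave 1 higher. With unscaled genes, the highest over the lowest larger cluster of the stored healthy section was 1.78.

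Ratios within classes of spots were added after seeing the data. At 2 weeks they were 8.34 and 5.10 in the lowest and highest MYH1 25% classes, 8.33 and 5.55 in those of the fast fiber list and 6.09 in spots with MYH8. At 16 weeks they were 3.79 and 1.71 for MYH1, 2.05 and 4.34 for MYH7, 4.12 and 1.75 for the fast fiber list, 1.71 in spots with MYH8 and 1.89 in the highest 25% class of the fibroblast list. For the fresh against the stored healthy section they were 1.23 and 0.689 in the lowest 25% classes of MYH1 and MYH7, 1.56 in spots with MYH8 and 1.18 in the lowest 25% class of the fast fiber list.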
